A study of Mus musculus with 6 samples.

Results

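In the uterus of ovariectomized mice, 989 genomic regions were called as estrogen receptor alpha (ERα) sites with fulvestrant in both wild-type and ERα AF-2 mutant animals, and with tamoxifen in neither. They were found among 65146 regions obtained by merging all peaks, in the mm9 build of the mouse genome, that shared at least 1 bp. A region was kept when it held a fulvestrant peak of each genotype and no tamoxifen peak of either genotype. Peaks of the vehicle lists could be present or absent. The members were thus chosen by presence or absence of a called peak in the 4 ligand lists, so their number is a description, not a test.

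ERα was mapped by chromatin immunoprecipitation and sequencing (ChIP-seq). The mice were 12-week-old ovariectomized females of the C57BL/6J strain, either AF2ERKI (ERα AF-2 mutant) or wild-type littermates. They received 2 mg/kg fulvestrant (ICI182780, here ICI), 2 mg/kg tamoxifen or 50 µl of the vehicle DMSO by intraperitoneal injection, and uteri were taken after 1 h. Every group was 1 library from the pooled uteri of 6 mice, 6 libraries in all, so there is no spread between replicates and no difference was tested. The meaning of E1h, a code in every sample title, is not stated. Whole uterus holds epithelium, stroma and muscle, and the lists do not say in which cells a site was bound.

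ERα is a nuclear receptor that binds estrogen response elements in DNA, can also be tethered to other factors at their own sites, and regulates nearby and distant genes. Its activation function 2 (AF-2) is a ligand-dependent surface of the ligand-binding domain that recruits coactivators. Fulvestrant is a steroid with a long side chain that blocks AF-2 and promotes loss of the receptor. Tamoxifen, by contrast, has a triphenylethylene core with no steroid and is a partial agonist in the uterus. In mice with a mutated AF-2, compounds classed as antagonists are known to activate the receptor in some tissues.

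The deposited lists hold positions only: every peak was 200 bp wide and none had a height or a score. The wild-type lists held 26482 (ICI), 37327 (tamoxifen) and 3712 (vehicle) peaks. Those of the mutant held 45837, 36538 and 5027. Read depth is unknown, so a missing tamoxifen peak means that no peak was called, and weaker binding below the authors' threshold cannot be seen.

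The tamoxifen-free ICI regions were a small part of the ERα sites. They made up 1.52% of all merged regions and 5.11% of the 19355 regions with an ICI peak of both genotypes. They took 3.73% of the wild-type ICI list (exact binomial 95% interval 3.51 to 3.97) and 2.16% of the mutant ICI list (2.03 to 2.29). Of the other regions with ICI in both genotypes, 15144 held tamoxifen peaks of both genotypes, 1600 only of the wild type and 1622 only of the mutant. The mirror-image class, with tamoxifen in both genotypes and no ICI, held 725 regions, 3.03% of the 23955 regions with tamoxifen in both genotypes (2.81 to 3.25). Intervals reflect counting error alone and say nothing of how mice or libraries vary.

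Lack of a tamoxifen peak was far more common where ICI gave a peak in a single genotype. Among regions with ICI in the wild type alone, 59.3% had no tamoxifen peak (58.2 to 60.5; 4228 of 7127). With ICI in the mutant alone the share was 31.8% (31.3 to 32.4; 8430 of 26474). Sites called in both ICI libraries were therefore mostly called with tamoxifen too. The 989 regions are the exceptions. The tamoxifen lists showed a like pattern. Of regions with tamoxifen in the wild type alone, 47.1% had no ICI peak, and of those with tamoxifen in the mutant alone 28.4%. With tamoxifen in both genotypes the share was 3.03%.

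Each of the 989 regions held exactly 1 wild-type and 1 mutant ICI peak. The regions were 200 to 439 bp wide with a median of 228 bp, and in 13 of them all peaks coincided. The mutant peak lay at a higher coordinate in 494 regions, at a lower one in 481 and at the same midpoint in 14, so the genotypes showed no common shift in position. The median distance between the midpoints was 26 bp (order-statistic 95% interval 24 to 29; quartiles 12 and 50.0), and 73 regions had midpoints more than 100 bp apart.

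The ICI peaks of the genotypes coincided less closely in these regions than at sites shared by all 4 ligand lists. There the median distance between the same pair of lists was 16 bp (16 to 17). Midpoints within 50 bp of each other were found in 75.3% of the tamoxifen-free regions (72.5 to 78.0) and in 89.5% of the shared sites (89.0 to 90.0). Regions with ICI in both genotypes and tamoxifen in the wild type alone had a median of 21 bp, and those with tamoxifen in the mutant alone 24 bp (23 to 26), so this last interval overlaps that of the tamoxifen-free regions. Between the tamoxifen lists, the midpoints lay 19 bp apart in the mirror-image class and 11 bp apart at sites of all 4 lists. Classes missing from a ligand thus had wider offsets than the sites shared by all 4 lists, for either ligand.

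**Figure D1:**
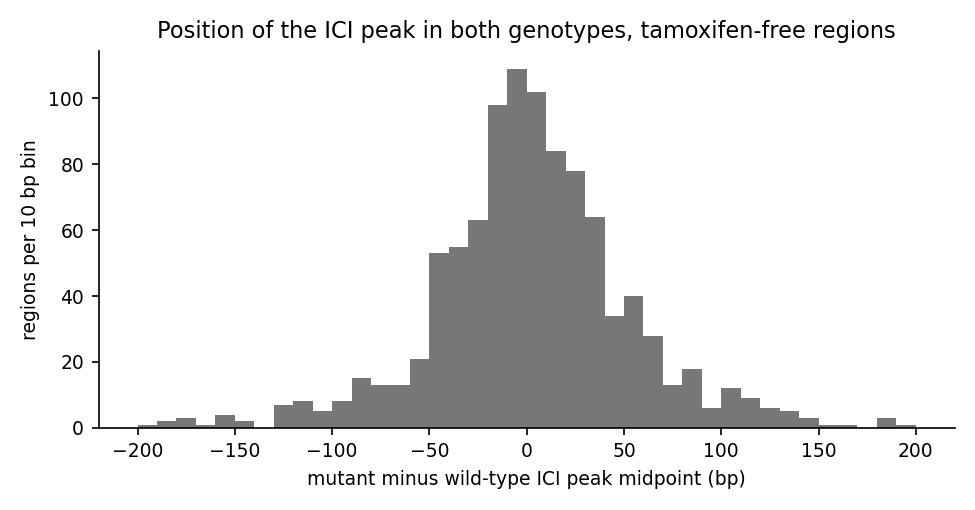
Histogram of the mutant minus the wild-type ICI peak midpoint in the 989 regions with ICI in both genotypes and no tamoxifen (x axis in bp, y axis regions per 10 bp bin). The values centre on 0, with 494 regions above and 481 below it.

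Few of the regions were also called under vehicle. A vehicle peak of either genotype lay in 56 of the 989 regions, 5.66% (4.31 to 7.29), against 9.51% of all regions with a ligand peak and 17.3% of all regions with ICI in both genotypes. At sites of all 4 ligand lists the share was 19.8% (19.1 to 20.4), and in the mirror-image tamoxifen class 13.1% (10.7 to 15.8). The interval of the tamoxifen-free ICI regions overlapped none of these. It did overlap that of the regions with ICI in both genotypes and wild-type tamoxifen alone, at 7.94% (6.66 to 9.37).

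The vehicle peaks in these regions came mainly from the mutant. The mutant vehicle list had a peak in 47 regions, 4.75% (3.51 to 6.27), and the wild-type vehicle list in 15, 1.52% (0.851 to 2.49). Over all regions with a ligand peak these shares were 5.87% for the mutant and 5.21% for the wild type. Over the regions with ICI in both genotypes they were 7.98% and 11.9%. Both shares were thus below both backgrounds. The interval for wild-type vehicle excluded both, whereas that for mutant vehicle contained the first background and excluded the second. Sites of all 4 ligand lists showed the opposite order, with 14.2% for wild-type vehicle (13.6 to 14.8) and 8.60% for mutant vehicle (8.16 to 9.06). Where tamoxifen was called in the wild type alone, wild-type vehicle led with 6.69% against 1.63%. Where it was called in the mutant alone, mutant vehicle led with 10.5% against 1.79%. The mirror-image tamoxifen class resembled the tamoxifen-free ICI regions in order, with 10.9% for mutant and 4.69% for wild-type vehicle. The mutant vehicle list is the longer by 5027 to 3712 peaks, and with 1 library each a difference between genotypes and one between libraries cannot be told apart.

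**Figure D2:**
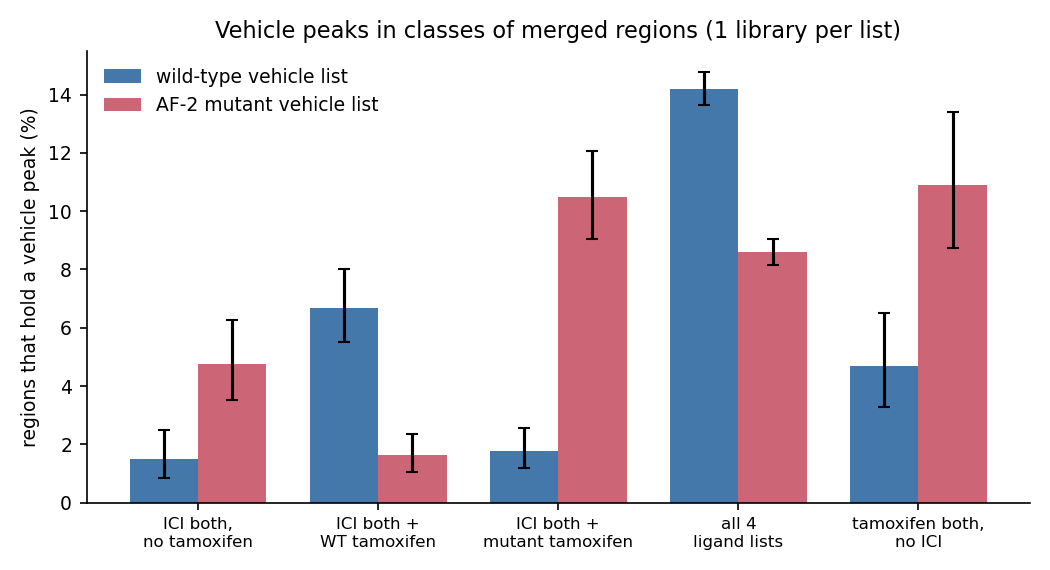
Share of regions (y axis, %) that hold a wild-type (blue) or AF-2 mutant (red) vehicle peak in 5 classes of merged regions, with exact 95% binomial intervals as bars. The tamoxifen-free ICI regions at the left stand at 1.52% for wild-type and 4.75% for mutant vehicle, while sites of all 4 ligand lists stand at 14.2% and 8.60%.

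Only 6 of the 989 regions held vehicle peaks of both genotypes. These were chr2:6427488-6427738, chr5:46248471-46248854, chr7:87065459-87065706, chr8:34627623-34627914, chr12:3572047-3572389 and chr16:10313766-10314170. Each held called peaks of both genotypes with ICI and with vehicle, and none with tamoxifen. Merging can chain peaks, so the peaks of a region need not all overlap. On chromosome 2, the 2 ICI peaks lay 5 bp apart by midpoint and the nearest tamoxifen peak 21051 bp away. On chromosome 7, the nearest tamoxifen peak was 52380 bp away, and none of either genotype lay within 50 kb of the region's centre. On chromosome 5, the mutant ICI peak was offset by 103 bp from the wild-type one, and a single mutant tamoxifen peak lay within 50 kb, at 45728 bp. The chromosome 12 region was the closest of the 6 to tamoxifen, with a wild-type peak at 3099 bp and the nearest mutant one at 157283 bp. On chromosome 8 tamoxifen peaks of both genotypes lay nearby, the mutant one at 11046 bp and the wild-type one at 11050 bp. The chromosome 16 region had 4 wild-type tamoxifen peaks within 50 kb and no mutant one. Its wild-type ICI peak ended at 10313965 and its mutant vehicle peak began at 10313971, so these shared no base. The distance to tamoxifen overlapped between regions with and without a vehicle peak: the median was 9170 bp for the 56 with a vehicle peak (interval 4455 to 15873) and 7461 bp for the 933 without (6618 to 8503).

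Although none held a tamoxifen peak, most of the regions had one in the vicinity. The distance from a region's edge to the nearest tamoxifen peak of either genotype had a median of 7516 bp (6635 to 8586), with quartiles of 1652 and 21544 bp. For comparison, the nearest merged region of any kind lay at a median of 4343 bp, against 4609 bp over all merged regions. A tamoxifen peak lay within 1000 bp of 195 regions, 19.7% (17.3 to 22.3), and within 10000 bp of 576 regions, 58.2% (55.1 to 61.3). At the other end, 95 regions (9.61%) were more than 50000 bp from any tamoxifen peak and 30 (3.03%) more than 100000 bp. The wild-type and mutant tamoxifen lists were about equally distant, with medians of 10277 and 10816 bp. Of the 195 regions with a tamoxifen peak within 1000 bp, 116 had one of both genotypes, 30 of the wild type only and 49 of the mutant only.

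The same proximity was seen from the tamoxifen side and in single-genotype ICI regions. The mirror-image tamoxifen class lay at a median of 6948 bp from the nearest ICI peak (6076 to 7752), with 22.1% within 1000 bp (19.1 to 25.3). Tamoxifen-free regions with ICI in the mutant alone had a tamoxifen peak within 1000 bp in 17.9% (17.1 to 18.7), and those with ICI in the wild type alone in 24.5% (23.2 to 25.8). The value of the regions with ICI in both genotypes lies between these, and its interval overlaps that of the mutant-only regions and of the mirror-image class but not that of the wild-type-only regions. The far tail was alike too. More than 50000 bp from the other ligand lay 9.61% of the regions with ICI in both genotypes (7.84 to 11.6) and 10.1% of the mirror-image class. The share was 10.8% with ICI in the wild type alone and 10.2% in the mutant alone.

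**Figure D3:**
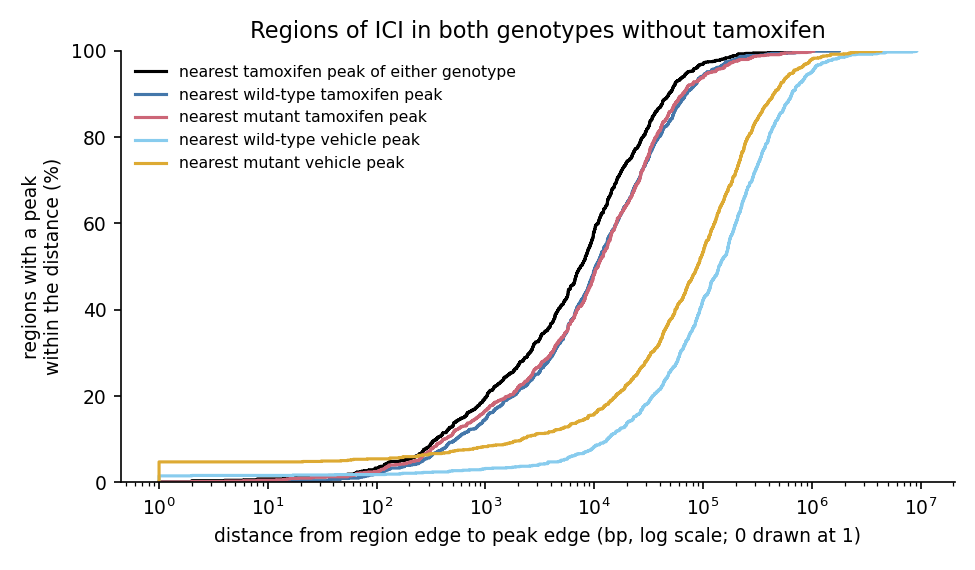
Cumulative share of the 989 tamoxifen-free ICI regions (y axis, %) with a peak of the named list within a given edge-to-edge distance (x axis, bp, log scale). The curve for a tamoxifen peak of either genotype reaches 19.7% at 1000 bp and 58.2% at 10000 bp, while the vehicle curves start at 1.52% and 4.75% at 0 bp, where the peak lies in the region.

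The boundary of the class is a matter of single base pairs at a few sites. In 8 regions a tamoxifen peak lay within 10 bp. The nearest was at chr12:28442520-28442730, where a mutant tamoxifen peak adjoined the region at 0 bp without sharing a base, and the nearest wild-type tamoxifen peak was 133285 bp away. At chr3:100029291-100029511 a wild-type tamoxifen peak lay 2 bp away and a mutant one 25 bp away. At chr5:115000864-115001078 these distances were 2 and 12 bp, and a mutant vehicle peak lay 54 bp away. At chr6:47966018-47966252 a mutant tamoxifen peak was 2 bp, a mutant vehicle peak 31 bp and a wild-type tamoxifen peak 37 bp away. At chr15:34277591-34277809 the distances were 4 bp for mutant and 55 bp for wild-type tamoxifen. Just outside the class, 6 of the 18366 regions with ICI in both genotypes and any tamoxifen peak had no more than 10 bp shared between an ICI and a tamoxifen peak. Among them, 4 bp were shared at chrX:97054180-97054594 and 6 bp at chr9:63605979-63606454.

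Of the 5 regions farthest from tamoxifen, 3 lay on the X chromosome, where regions of any kind numbered 8.35 per Mb against 20.4 on the sparsest autosome, chromosome 3. The region at chrX:86536921-86537172 lay 984040 bp from the nearest tamoxifen peak, and its ICI peaks were 52 bp apart by midpoint. The stretch without tamoxifen peaks around it spanned 2.78 Mb and held no other peak of any list. At chrX:56386641-56386885 the nearest tamoxifen peak was 945500 bp away, and the stretch of 1.99 Mb held 3 wild-type and 2 mutant ICI peaks and no vehicle peak. At chrX:5977021-5977280 it was 706146 bp away, and the region belonged to the start of the chromosome, before its first tamoxifen peak, where the lists held 1 wild-type and 3 mutant ICI peaks. At chr7:94394984-94395201 the distance was 898316 bp, in a stretch of 3.47 Mb with 1 wild-type and 2 mutant ICI peaks. The last, chr1:56343381-56343622, lay 398410 bp from tamoxifen and was the only site of any list in a stretch of 1.06 Mb. All 5 are ICI sites in stretches with few or no other peaks, called in both genotypes at midpoints 18 to 60 bp apart.

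Around the regions, all 4 ligand lists had neighbouring peaks. Within 50 kb of the centre, and outside the region itself, there were on average 3.98 mutant ICI, 3.18 mutant tamoxifen, 3.04 wild-type tamoxifen and 2.35 wild-type ICI peaks. Sites of all 4 ligand lists had more neighbours, with 4.91, 4.03, 3.97 and 2.75 in the same order, and the mirror-image class had 3.78, 3.01, 3.05 and 2.26. The mean number of tamoxifen neighbours was thus below that of the fully shared sites and close to that of the mirror-image class. The neighbours concentrated close by: within 2 kb of the centre, wild-type tamoxifen peaks were 1.92 times and mutant tamoxifen peaks 1.94 times as dense as at 10 to 50 kb. For wild-type ICI this ratio was 1.76, and for mutant ICI 1.84. A like rise was present at sites of all 4 ligand lists, with 1.79 and 1.81 for tamoxifen and 1.69 and 1.81 for ICI in the same order. Tamoxifen-free regions with ICI in the wild type alone had a larger one, of 2.40 for each tamoxifen list.

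The nearest neighbouring region of any kind held a tamoxifen peak for 690 of the 989 regions, 69.8% (66.8 to 72.6). Over all merged regions, of which 76.6% hold a tamoxifen peak, this share was 76.3%. It was 78.0% for sites of all 4 ligand lists (77.3 to 78.6), and 72.7% for the mirror-image class (69.3 to 75.9), whose interval overlaps that of the tamoxifen-free regions. The nearest neighbour was itself a tamoxifen-free ICI region of both genotypes for 32 of them, 3.24% (2.22 to 4.54), against 1.60% over all merged regions and 1.30% for sites of all 4 ligand lists (1.13 to 1.49). The share was 2.48% for the mirror-image class (1.48 to 3.90). With tamoxifen in 1 genotype it was 1.75% for the wild type (1.17 to 2.52) and 1.66% for the mutant (1.10 to 2.41). These last 3 intervals overlap that of the tamoxifen-free regions. Members of a pair can each be the nearest neighbour of the other, so the 32 are not independent counts and their interval may be too narrow.

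**Figure D4:**
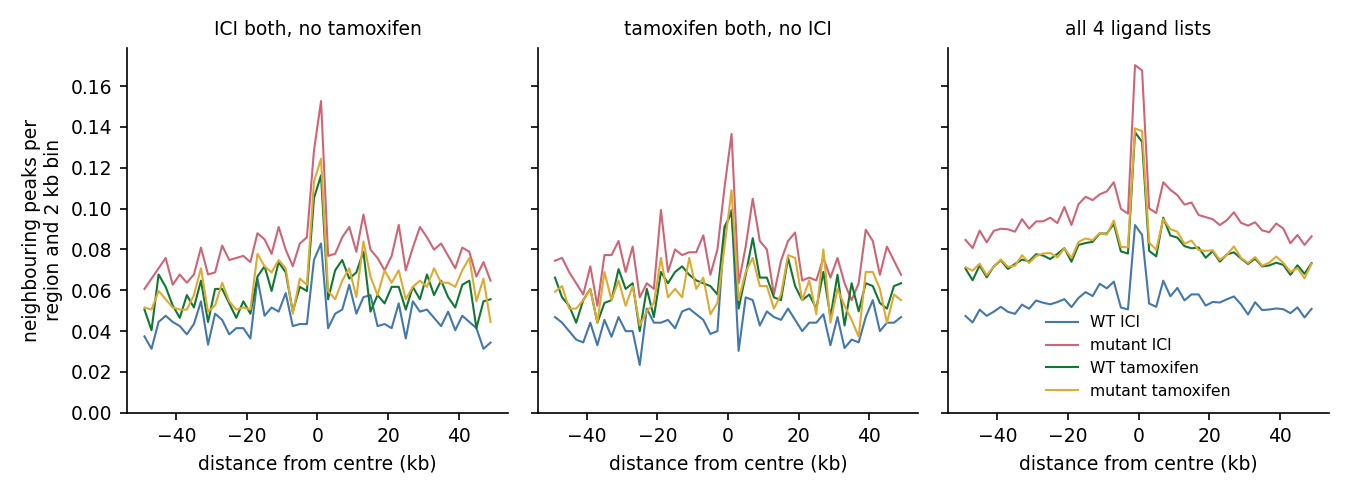
Mean number of neighbouring ligand peaks per region and 2 kb bin (y axis) against the distance from the region's centre (x axis, kb), outside the region itself, for 3 classes. In the tamoxifen-free ICI regions at the left, all 4 lists rise towards the centre, tamoxifen by 1.92 and 1.94 times over its level at 10 to 50 kb.

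Most of the tamoxifen-free ICI regions were the only one of their class in their window of 100 kb, where regions of other classes could also lie. They fell into 939 of the 16125 windows that held any merged region. Of these 939, 891 held a single region of the class, 46 held 2 and 2 held 3. The class made up only 1.52% of all merged regions, so single occupancy by itself says little about spacing, which was not tested. The window at chr1:167500001-167600000 held 3 of them (chr1:167525012-167525221, chr1:167547319-167547571 and chr1:167561489-167561810). Outside these 3, the window held 2 ICI peaks and 1 tamoxifen peak in each genotype, and the tamoxifen peaks lay together with ICI peaks at chr1:167562991-167563210, shortly beyond the third region. The window at chr7:150900001-151000000 also held 3, and outside them 4 wild-type and 6 mutant ICI peaks beside 4 wild-type and 3 mutant tamoxifen peaks. Its regions at chr7:150915824-150916025 and chr7:150916422-150916628 were 396 bp apart, the closest pair in the class. The window at chr1:59400001-59500000 was 1 of the 46 that held 2, named only because it came first in chromosome order. Its regions at chr1:59425102-59425335 and chr1:59425812-59426045 were 476 bp apart, and the nearest tamoxifen peak was 9509 bp from the second. Pairs closer than 1000 bp numbered 3 in all, the third being chr10:98499598-98499815 and chr10:98500259-98500481, 443 bp apart.

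By chromosome, 988 of the regions lay on chromosomes 1 to 19 and X and 1 on an unplaced contig. Chromosome 4 held the most, with 84, followed by chromosome 2 with 79 and chromosome 1 with 69. As a share of the regions with ICI in both genotypes, the tamoxifen-free ones ranged from 3.73% on chromosome 18 (2.43 to 5.46) to 7.51% on the X chromosome (5.09 to 10.6), around the genome-wide 5.11%. The genome-wide value lay below the interval of chromosome 4, with 6.47% (5.19 to 7.94). It lay above that of chromosome 11, with 3.90% (2.92 to 5.10), and within those of the other 18. The X chromosome held 29 of the 989 regions, 2.93% (1.97 to 4.18), against 2.13% of all merged regions, 1.90% of sites of all 4 ligand lists and 3.45% of the mirror-image class. Its interval contains the share of all merged regions, so no excess over that background was detectable with this number of regions. It also contains the 1.99% of all regions with ICI in both genotypes. It lies above the 1.90% of sites of all 4 ligand lists, whose own interval (1.69 to 2.13) overlaps it.

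**Figure D5:**
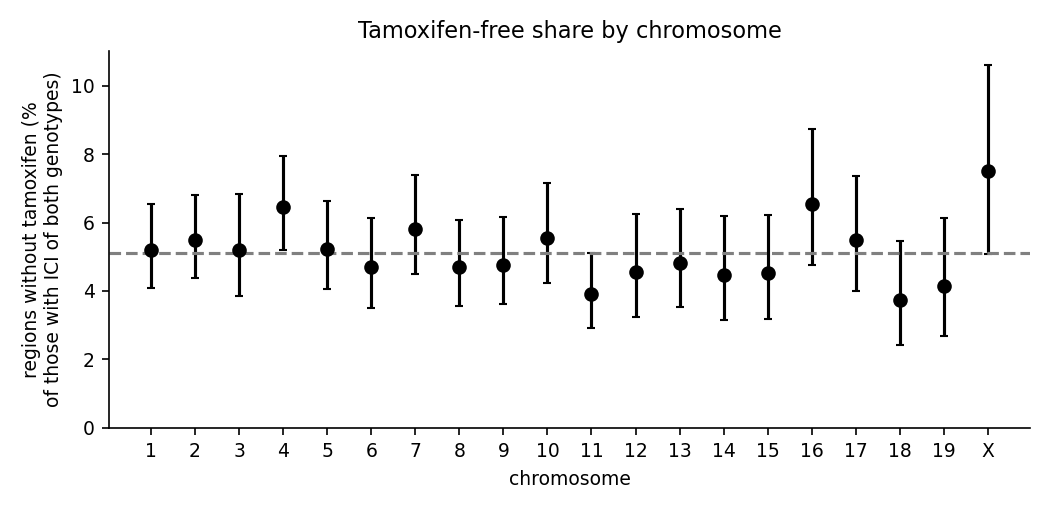
Tamoxifen-free share of the regions with ICI in both genotypes (y axis, %) by chromosome (x axis), with exact 95% intervals as bars and the genome-wide 5.11% as a dashed line. Chromosome 18 is lowest at 3.73% and the X chromosome highest at 7.51%, with wide intervals.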

How the data were processed

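ERα ChIP-seq peak lists of 6 mouse uterus libraries were used, 1 per combination of genotype and treatment. The authors used the build mm9 with HOMER 4.10.3, Bowtie2 2.1.0, bedtools 2.24.0, Picard and SAMtools, per the submitters' processing notes. For their roles, the peak threshold and any input control, the sources used here give nothing. The deposited lists carry positions only, with no other measured value, and read depth is unknown.

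In Python 3.11.15, with pandas 2.3.3, numpy 2.4.6, matplotlib 3.10.9 and scipy 1.17.1, peaks sharing 1 bp were merged and regions classed by the lists they held. The number of regions and of members differed by 0 from bedtools 2.31.1, and the functions were tested on simulated data. Shares have exact Clopper-Pearson 95% intervals and medians have order-statistic intervals. Distances run from edge to edge, and coordinates count from 1. With 1 library per group no test was made. The members, lists and comparisons were chosen with earlier results of these data known. Named regions were those with vehicle peaks of both genotypes, the 5 nearest to and 5 farthest from tamoxifen, and the 3 windows of 100 kb with the most members. Ties between windows went to the first in chromosome order. The closest pairs of members and the examples just outside the class were chosen after their values were seen. Genes and sequence of mm9 were not used here, so the planned shares with an estrogen response element or near a gene start were not computed. Alternatives changed the merging, the exclusion of tamoxifen and the chromosomes.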

Additional observations from a re-analysis of the deposited data

How the results depend on the processing

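Across 6 alternatives set for 5 results, 26 of 30 values stayed within the interval of the value given or, for the number of regions, within 1.5 times of it. Merging the 4 ligand lists alone and pairing ICI peaks directly each left 991 regions, and chromosomes 1 to 19 and X left 988. The values under these alternatives could hardly move. Under each of the other alternatives the median distance to tamoxifen left its interval. The number of regions ran from 794, with regions within 1000 bp of a tamoxifen peak also removed, to 999, with peaks merged within 200 bp. Merging within 200 bp raised the share with a vehicle peak to 7.31% and the median distance to tamoxifen to 8713 bp. That setting takes vehicle peaks up to 200 bp away into a region and bars tamoxifen peaks that near. Requiring an overlap of 100 bp lowered the median distance to 6615 bp, and it lets in regions that share fewer bases with a tamoxifen peak. Removing regions with tamoxifen within 1000 bp raised the median distance to 10658 bp. By construction, each of these settings favours the shift seen. No paired analysis was possible because each group had 1 library. The alternatives for estrogen response elements and gene starts were not run, since those shares were not computed. A stricter peak threshold could not be set without scores, and list length, which depends on depth, limits every statement that a peak is missing.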
